A study of Gossypium hirsutum with 6 samples.

Results

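Lint fibers of cotton start as single epidermal cells of the ovule, and MYB transcription factors take part in deciding which cells become fibers. Of the MYB genes that the study of the fiberless mutant *Xu142fl* gave by ID, MYB1R1 (Gh_A11G2875) and MYB108 (Gh_A11G0981) are described here, 2 of the 65894 genes listed. They carry the names of MYB proteins known from stress responses in other species, and both lie on chromosome A11 of the TM-1 genome, by their IDs. Both were chosen by the study on the values of these same libraries, as genes lower in *Xu142fl*. The difference between lines that follows is therefore a description. Limma calls of it are given for completeness, and they are no independent test. The names MYB1R1 and MYB108 stand below for these 2 IDs alone. Other genes with the same names, and copies on other chromosomes, were not analysed here.

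MYB proteins bind DNA through repeats of a helix-turn-helix unit. Most plant members are of the R2R3 type, and a smaller class carries a lone repeat. MYB1R1 is named after a protein of the lone-repeat class known in potato from the response to drought. MYB108 is an R2R3 protein. In Arabidopsis it is also called BOS1, it takes part in the response to necrotrophic fungi such as Botrytis, and it acts in stamen maturation under jasmonate. In cotton, MYB108 is known from the defense against Verticillium wilt. The MYB-MIXTA-like (MML) genes, which act in the outgrowth of epidermal cells, are the MYB genes most closely tied to fiber initiation.

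Ovules of field-grown *Gossypium hirsutum* were collected 3 and 1 days before anthesis (-3 and -1 DPA) and mixed. There were 3 libraries of Xu142, the wild type with fiber, and 3 of its fiberless mutant *Xu142fl* (labelled Xuzhou142fl). The study calls the libraries of a line biological replicates. The portion of each stage in a mixture was not given in the sources used here, and the labels name no stress treatment. The mutant gene of *Xu142fl* known from earlier mapping is li3, the MML4 gene on D12, and the labels give no allele. Other differences between the lines were not analysed here, so a difference in expression cannot be assigned to that locus.

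Expression was deposited as FPKM, a fragment count corrected for transcript length and sequencing depth, without read counts, so no counting interval can be given for a gene. Summed over genes, the libraries held between 804997 and 844877 FPKM. Xu142 replicate 2 and *Xu142fl* replicate 1 stood apart within their lines. Over all tested genes, the absolute log2 difference between Xu142 replicates 1 and 3 had a median of 0.136, against 0.234 and 0.266 where replicate 2 was one of the pair. It was 0.173 between *Xu142fl* replicates 2 and 3, against 0.290 and 0.366 where replicate 1 was one of the pair. Results are therefore also given without these libraries, an alternative chosen after the data had been seen. The MML3 gene on D12 (Gh_D12G1628) had between 51.83 and 61.49 FPKM in the Xu142 libraries and between 0.18 and 0.37 FPKM in the *Xu142fl* libraries. The study reported it as lower in *Xu142fl* on these same libraries. Its values thus show only that columns were matched to lines as in the study, and are no independent check of the labels.

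MYB1R1 was well expressed in ovules of Xu142 and weakly expressed in those of *Xu142fl*. Its level was 31.38, 21.88 and 24.42 FPKM in Xu142 replicates 1, 2 and 3, and 4.64, 3.51 and 4.22 FPKM in *Xu142fl* replicates 1, 2 and 3. The lines did not overlap, and the gap of 17.24 FPKM between the lowest Xu142 library and the highest *Xu142fl* library exceeded the range within either line, 9.5 FPKM in Xu142 and 1.13 FPKM in *Xu142fl*. The means were 25.9 ± 4.92 FPKM (SD, n = 3) in Xu142 and 4.12 ± 0.571 FPKM in *Xu142fl*, so that the mean was 6.28-fold lower. Over the 9 pairs of a Xu142 with a *Xu142fl* library, the ratio lay between 4.72 and 8.94. On the scale of log2(FPKM + 0.1) the fold change, *Xu142fl* against Xu142, was -2.61 with a standard error of 0.17 in limma. RNA of whole ovules was measured, so fewer cells that express the gene and less of its RNA in each cell cannot be told apart.

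MYB108 was lower in *Xu142fl* by a smaller factor. Its level was 16.28, 17.40 and 17.25 FPKM in Xu142 replicates 1, 2 and 3, and 8.49, 5.85 and 6.53 FPKM in *Xu142fl* replicates 1, 2 and 3. The Xu142 libraries lay close together, and all 3 were above the *Xu142fl* libraries, of which replicate 1 was the highest. The gap between the lines was 7.79 FPKM, against a range of 1.12 FPKM within Xu142 and 2.64 FPKM within *Xu142fl*. The means were 17.0 ± 0.608 FPKM (SD, n = 3) and 6.96 ± 1.37 FPKM, 2.44-fold lower in *Xu142fl*, and the 9 ratios of single libraries lay between 1.92 and 2.97. The log2 fold change was -1.29 with a standard error of 0.15. In *Xu142fl* ovules 41.0% of the Xu142 level of MYB108 was left, and 15.9% of that of MYB1R1.

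**Figure D1:**
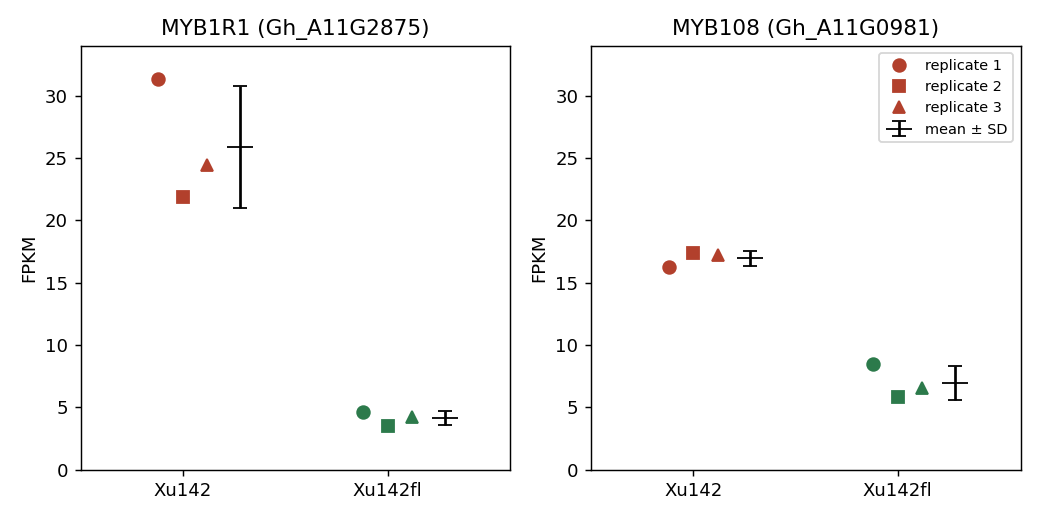
FPKM of MYB1R1 (left) and MYB108 (right) in each library of Xu142 (red) and *Xu142fl* (green), with a symbol for each replicate number and the mean ± SD of 3 libraries in black. The lines are apart in both genes, and MYB1R1 lies above MYB108 in Xu142 but below it in *Xu142fl*.

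The order of the genes was opposite in the 2 lines. MYB1R1 was 1.93, 1.26 and 1.42 times as high as MYB108 in Xu142 replicates 1, 2 and 3, on the FPKM scale, which accounts for transcript length. In *Xu142fl* replicates 1, 2 and 3 it was 0.547, 0.6 and 0.646 times as high. MYB1R1 was thus the higher gene in every Xu142 library and the lower gene in every *Xu142fl* library. The log2 ratio of MYB1R1 to MYB108 was 0.59 ± 0.32 (SD, n = 3) in Xu142, and it was -0.73 ± 0.12 in *Xu142fl*, a difference of -1.32. A ratio within a library is the same under any factor applied to that whole library, apart from the pseudocount. A constant error in the FPKM of 1 of the genes would shift the ratio alike in both lines and could remove the opposite order. Such an error was not tested. The difference of -1.32 is that between the 2 log2 fold changes, and is no separate result.

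The place of each gene among all genes of a library was read from the same FPKM. MYB1R1 was among the highest 8.39% to 12.8% of the listed genes in the Xu142 libraries and was near the middle of the listed genes in *Xu142fl*, with 44.0% to 51.6% at or above it. MYB108 was among the highest 16.6% to 18.3% in Xu142 and 31.3% to 41.5% in *Xu142fl*. Of all 56395 genes tested, 412 had a log2 fold change at or below that of MYB1R1, which is 0.731%, and 2613 at or below that of MYB108, which is 4.63%. The median over all tested genes was 0.01.

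**Figure D2:**
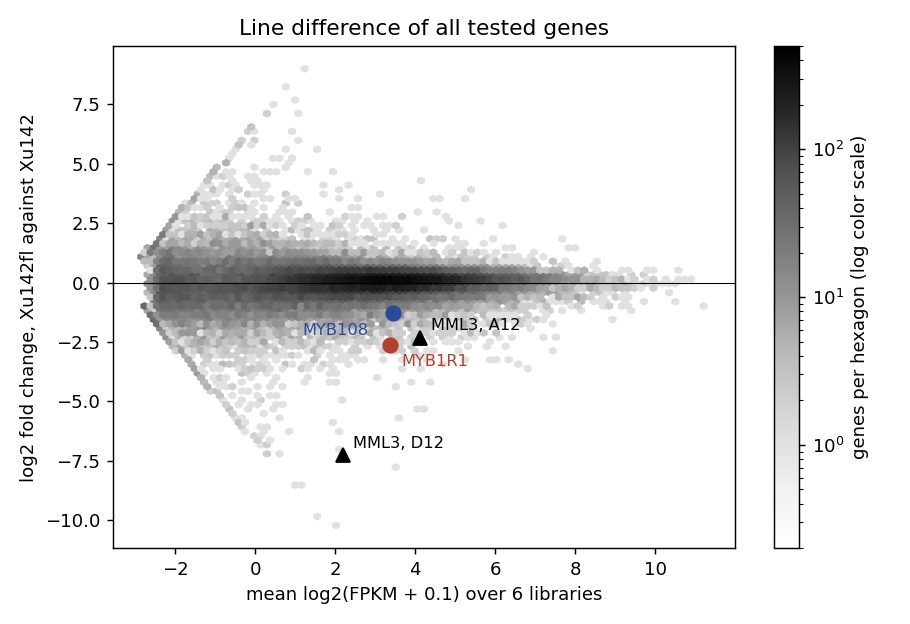
Log2 fold change of each tested gene, *Xu142fl* against Xu142, by its mean log2(FPKM + 0.1) over the 6 libraries, with darker gray for more genes in a hexagon on a log color scale. MYB1R1 and MYB108 (circles) have nearly the same mean level, and lie at -2.61 and -1.29, with both MML3 genes (triangles) for comparison at -2.32 on A12 and -7.25 on D12.

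The strict limits have the cutoffs of the study (adjusted p not above 0.001, with a 2-fold change or more). The study applied them with DEGseq, and here they were applied with limma. A gene not called here thus does not contradict its call in the study. At the strict limits, MYB1R1 was called lower by limma and MYB108 was not, against 0.555% of all tested genes called lower. At the looser limits, with 0.05 in place of 0.001, both genes were called lower, against 4.47% of all tested genes. Lines without overlap, with *Xu142fl* lower, were seen in both genes and in 19.5% of all tested genes. The contrast that chose the genes was the same, so nothing is read from these counts. At the strict limits, the call of MYB1R1 was lost in 5 of the 6 fits that left out a library. The fit without *Xu142fl* replicate 1 kept it, and MYB108 was called in that fit alone. Over all tested genes, 313 were called lower at these limits with all libraries, and 205 in the fit without *Xu142fl* replicate 1. In the 5 fits that lost the call of MYB1R1, between 18 and 77 were called lower.

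The spread between replicates was read within each line, as a description, since the choice of the genes may have depended on it. In Xu142, the SD of log2(FPKM + 0.1) was 0.27 for MYB1R1 and 0.05 for MYB108. Among the 45566 genes whose mean reached 1 FPKM, for which the median SD in Xu142 was 0.16, 75.1% had a smaller SD than MYB1R1 and 10.1% a smaller SD than MYB108. In *Xu142fl* the order was turned around, with 0.20 for MYB1R1 and 0.27 for MYB108 against a median of 0.21. The high SD of MYB1R1 in Xu142 came with replicate 1, the highest library at 31.38 FPKM, which was the lowest of its line for MYB108. In *Xu142fl* both genes had the same order of libraries, with replicate 1 highest and replicate 2 lowest. *Xu142fl* replicate 1 is also the library that stood apart over all genes, and its part in this order was not tested.

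The log2 fold changes moved little when a library was left out, between -2.73 and -2.47 for MYB1R1 and between -1.44 and -1.18 for MYB108. Without both libraries that stood apart they were -2.81 (standard error 0.16) and -1.42 (standard error 0.10), both larger in size than with all libraries. The difference of the log2 ratio between lines was -1.39 without these libraries. No alternative brought the fold change of either gene below 2-fold or changed its sign.

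**Figure D3:**
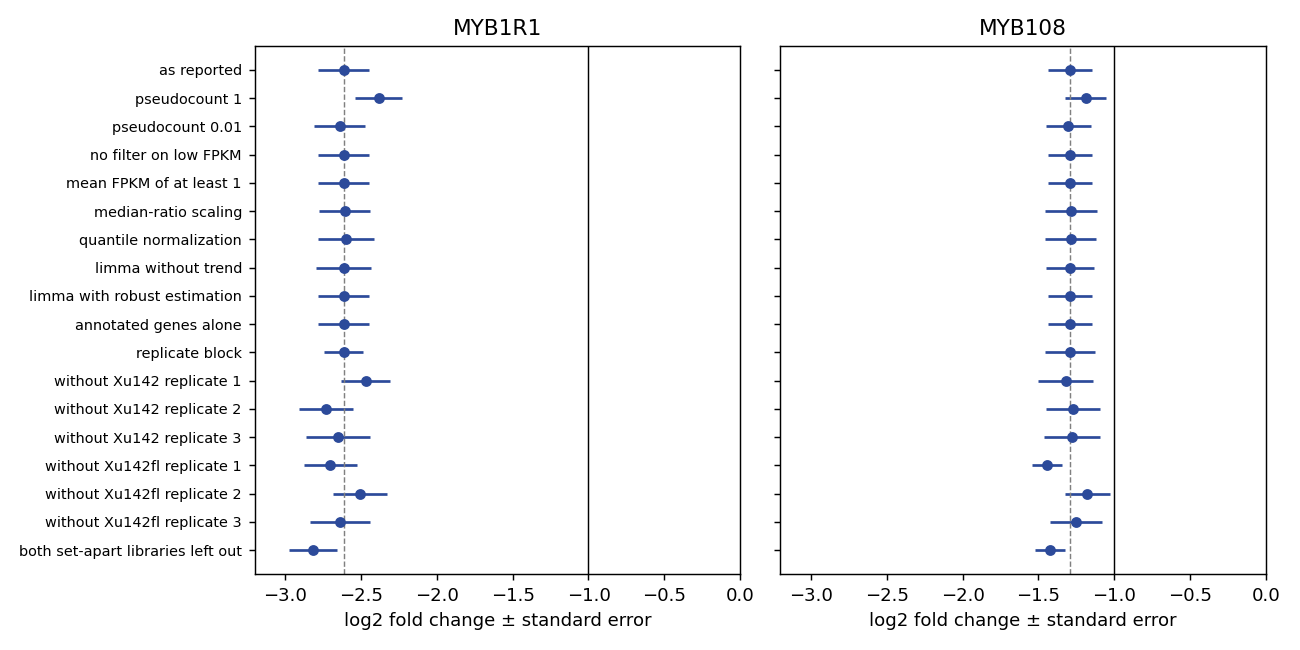
Log2 fold change of MYB1R1 (left) and MYB108 (right) with its standard error in the fit as reported and under 17 other settings, with the reported value as a dashed line and the 2-fold limit at -1 as a solid line. All points lie left of the limit, between -2.81 and -2.38 for MYB1R1 and between -1.44 and -1.18 for MYB108.

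The number in an ID was taken as the order of genes along chromosome A11, on which MYB1R1 and MYB108 are 1894 IDs apart. On the whole chromosome 2516 genes were tested, of which 106 (4.21%) were called lower in *Xu142fl* and 33 (1.31%) higher at the looser limits. Over all tested genes these values were 4.47% and 1.67%. Counted from the lowest log2 fold change on A11, MYB1R1 was at rank 12 and MYB108 at rank 97.

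Genes next to MYB1R1 and MYB108 on the chromosome were also read. Of the 50 IDs up to 25 below and 25 above MYB1R1, 47 were listed and 39 tested, with 1 called lower, 1 called higher and a median log2 fold change of 0.04, where 4.47% and 1.67% of all tested genes were called. The gene called higher was MCM2 (Gh_A11G2852), a subunit of the helicase that opens DNA for replication, 23 IDs below MYB1R1. MCM2 had 30.5 ± 2.68 FPKM (SD, n = 3) in the Xu142 libraries and 63.9 ± 12.3 FPKM in *Xu142fl*, with a log2 fold change of 1.05. The gene called lower lay 7 IDs above MYB1R1 and is not on the list of named genes used here. It had 4, 8.95 and 4.94 FPKM in Xu142 and 0.72, 0.51 and 0.17 FPKM in *Xu142fl* replicates 1, 2 and 3. The lines thus did not overlap in this gene, and its log2 fold change of -3.48 (standard error 0.48) was larger in size than that of MYB1R1. The next ID below MYB1R1 was not listed. The next ID above had 0.83, 0.39 and 0.79 FPKM in Xu142 and 0, 0.38 and 0 FPKM in *Xu142fl* replicates 1, 2 and 3. Its log2 fold change was -2.13 with a standard error of 0.68, lower in *Xu142fl* at very low levels, and it was not called.

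Next to MYB108 lay a gene that was lower in *Xu142fl* as well. The next ID below MYB108 is also not on the list of named genes. It had 13.27, 12.76 and 12.06 FPKM in Xu142 replicates 1, 2 and 3 and 3.06, 2.93 and 3.48 FPKM in *Xu142fl*. The lines did not overlap, the spread within each line was small, and the gene was called at the strict limits, with a log2 fold change of -1.98 and a standard error of 0.12. This gene was singled out after its values had been seen. In *Xu142fl* its highest library was replicate 3, where that of MYB108 was replicate 1. The next ID above MYB108 was not listed. Of the 50 IDs around MYB108, 40 were listed and 31 tested, with 2 called, both of them lower, and a median log2 fold change of -0.05. Of all tested genes, 4.47% were called lower and 1.67% higher at these limits, and nothing is read from the count. The counts of called genes around both genes were the same without the libraries that stood apart, where 5.64% of all tested genes were called lower. The RSEM program used by the authors divides reads that match several genes, so values of adjacent or subgenome copies with near-identical sequence are uncertain, and whether these neighbors share sequence was not analysed here.

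**Figure D4:**
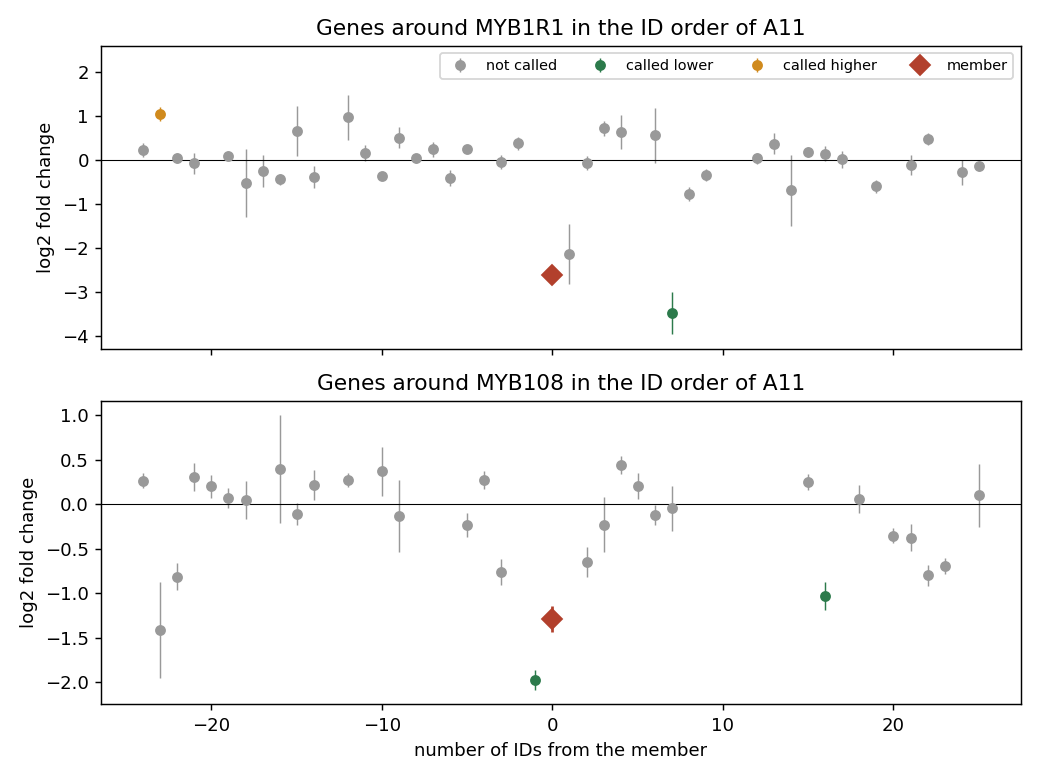
Log2 fold change (*Xu142fl* against Xu142) with its standard error for the tested genes up to 25 IDs below and above MYB1R1 (top) and MYB108 (bottom) on A11, colored by the call at the looser limits. Most genes lie near 0, with 1 called lower and 1 called higher around MYB1R1 and 2 called lower around MYB108.

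Likeness to other genes was measured as the root-mean-square difference between profiles of log2(FPKM + 0.1) over the 6 libraries, each centered on its own mean. It reads the pattern across libraries and not the level, and it includes the difference between lines. Of 45565 genes whose mean reached 1 FPKM, the gene nearest to MYB1R1 was Gh_A05G1804, at 0.11, with 14.62, 13.02 and 13.53 FPKM in Xu142 and 2.37, 1.77 and 2.13 FPKM in *Xu142fl* replicates 1, 2 and 3. This gene, which is not on the list of named genes, was also highest in replicate 1 and lowest in replicate 2 of each line. For MYB108 the nearest gene was Gh_A08G1541, at 0.05, with 5.51, 6.04 and 5.46 FPKM in Xu142 and 2.94, 1.91 and 2.18 FPKM in *Xu142fl*. Both nearest genes were thus lower in every *Xu142fl* library than in any Xu142 library, as the members were. This follows from the measure that picked them, and 19.5% of all tested genes had such lines without overlap. Within 0.2 lay 18 genes for MYB1R1 and 354 for MYB108, and the median distance over all genes was 1.35 and 0.715. The distance includes the fold change, so these counts are no separate result.

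Among 46 genes that the study or an earlier account of these data named, MYB1R1 was most like the MML3 gene on A12 (Gh_A12G1503), at 0.18, which was rank 9 among all 45565 genes. MML3 on A12 had 44.37, 35.25 and 36.67 FPKM in Xu142 replicates 1, 2 and 3 and 7.76, 6.96 and 8.34 FPKM in *Xu142fl*, which gives a log2 fold change of -2.32 (standard error 0.12). Like MYB1R1, it was highest in replicate 1 and lowest in replicate 2 of Xu142. Without the libraries that stood apart, this gene was still the nearest named gene to MYB1R1, but at rank 75 among all genes. The MML8 genes on A13 (Gh_A13G0688) and D13 (Gh_D13G0798) followed at 0.35 and 0.44, and were at ranks 3 and 4 among the named genes without those libraries. They were far weaker than MYB1R1, with 1.79 ± 0.631 and 1.34 ± 0.692 FPKM (SD, n = 3) in Xu142. The study chose all of these genes as lower in *Xu142fl*, which makes their profiles alike in part by choice. Many of the other named genes were higher in *Xu142fl*, and the distance includes the difference between lines. That an MML gene was the nearest named gene is therefore no separate result.

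The study chose the 6 MML genes as lower in these same libraries. All 6 were called lower at the looser limits, against 4.47% of all tested genes, and 3 at the strict limits, against 0.555%, with log2 fold changes from -7.25 to -1.84. Those of 2 MML genes, MML3 on D12 and MML9, were larger in size than that of MYB1R1, and none of the 6 was smaller in size than that of MYB108. In Xu142, 4 of the 6 MML genes had a lower mean FPKM than MYB108.

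Among the 46 named genes, MYB108 was most like 3 genes of the alpha-expansin EXPA4, a protein that loosens the cell wall. These were Gh_A09G1454 at 0.20, Gh_D09G1463 at 0.22 and Gh_A07G0902 at 0.23. The study chose them, too, as lower in these same libraries, and many of the other named genes were higher in *Xu142fl*. Their likeness to MYB108 is therefore in part by choice. The nearest, Gh_A09G1454, had 61.61, 63.66 and 65.14 FPKM in Xu142 replicates 1, 2 and 3 and 25.28, 27.53 and 28.44 FPKM in *Xu142fl*, which gives a log2 fold change of -1.23 (standard error 0.08). It was, as MYB108, lowest in replicate 1 of Xu142, but in *Xu142fl* replicate 1 was its lowest library and the highest of MYB108. Its rank among all genes was 391, so that many genes outside the named list were nearer to MYB108 than any EXPA4 gene. Without the libraries that stood apart these 3 EXPA4 genes were at ranks 2, 3 and 4 among the named genes. A further EXPA4 gene was among the named genes, and its rank without those libraries is not given here. The gene then at rank 1 may thus be an EXPA4 gene too. MYB1R1 and MYB108 were 0.69 apart from each other, and MYB108 was at rank 1027 among the genes nearest to MYB1R1.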

How the data were processed

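FPKM were deposited for 3 libraries of Xu142 and 3 of *Xu142fl*, each of mixed ovules. The authors aligned clean reads to the TM-1 genome, using Bowtie2 for annotated genes and HISAT2 and StringTie for predicted ones, and RSEM gave the deposited FPKM, which have 2 decimals. Columns were matched to libraries by title. The 56395 genes whose mean reached 0.1 FPKM were compared as log2(FPKM + 0.1), a scale that understates changes of weak genes, with limma 3.58.1 in R 4.3.3 (intensity trend, Benjamini-Hochberg adjustment). The DEGseq test of the study needs counts and was not run. Python 3.11.15 was used for descriptions. The members, gene lists and limits were chosen with earlier results of these data known. Genes were named by a rule: the members, for each the nearest gene of all and the nearest 3 of the named genes, named genes within 25 IDs, and MML3. Of the IDs, 0 were found in the RefSeq gene table (assembly Gossypium_hirsutum_v2.1), and neither coordinates nor sequences are given. MYB genes of the study other than these, the MML genes and RL6 were not analysed here. Alternatives were other pseudocounts, filters, scalings and limma settings, the annotated genes by themselves, a fit with the replicate number as a block, and fits with a library left out.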

Additional observations from a re-analysis of the deposited data

How the results depend on the processing

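The log2 fold changes of MYB1R1 and MYB108 and their log2 ratio kept their sign and moved, under every alternative run, by less than the SD between replicates pooled over both lines (0.235 and 0.196 for the fold changes, 0.240 for the ratio). Some of these moves exceeded the smaller SD within a single line. Of the 2 genes, 1 was called at the strict limits. This number was 0 in limma without trend, 0 with the replicate block and 0 without both libraries that stood apart, and it ranged from 0 to 2 when each library was left out. Both genes were called at the looser limits under all 17 alternative fits. Over all genes, the number called lower at these limits ran from 1375 of 56350 (without Xu142 replicate 3) to 3174 of 56290 (without both libraries that stood apart). The genes were chosen on this contrast, so nothing is read from their calls. Libraries with the same replicate number did not deviate together (r across genes of -0.246, -0.232 and 0.138), so the numbers were not taken as pairs. Between Xu142 replicate 2 and *Xu142fl* replicate 1, the libraries that stood apart, r was 0.4. What these libraries share was not tested. Under the replicate block 2 genes were called at 0.001 of 423 without it, and 2048 of 3463 at 0.05. The count at 0.001 fell to between 37 and 273 when a library was left out, to 151 without both libraries, and to 288 without trend. At 0.05 a pseudocount of 1 lowered it to 1915. Without read counts, depth sets no stated limit here.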
